A study of Mus musculus with 6 samples.

Results

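The ADAM sheddases of myeloid cells described here are Adam8, Adam9, Adam10, Adam15, Adam17 and Adam19, together with Rhbdf2, which encodes iRhom2, the partner of ADAM17. Members were taken by gene symbol from the table of each mouse, which gave 7 genes of the 24346 listed. RNA sequencing was performed on CX3CR1-EGFP+ osteoclast precursors from the calvaria of 6 knock-in mice, 3 treated with a JAK inhibitor and 3 treated with vehicle. All mice, vehicle-treated controls included, received LPS at 20 mg/kg into the calvarial periosteum, so no group was free of inflammation. JAK inhibitor-treated mice received ABT-317, a selective JAK1 inhibitor, orally at 60 mg/kg 2 times per day, and cells were collected at day 5. Age and sex of the sequenced mice were not given in the sources used here. The sort rests on EGFP in the Cx3cr1 locus, which marks the monocyte lineage and not osteoclast precursors alone.

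ADAM proteases sit in the plasma membrane and cut the outer part of neighbouring membrane proteins close to the cell surface, which releases cytokines, receptors and adhesion molecules. ADAM17 releases TNF and needs an iRhom to leave the endoplasmic reticulum and mature, and in myeloid cells that partner is mainly iRhom2. ADAM10 is sorted and directed to its substrates by tetraspanins of the TspanC8 group, whereas ADAM8, first described in monocytic cells, activates itself by autocatalysis and is known from neutrophils, monocytes and osteoclasts.

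Values are FPKM, fragment numbers scaled to transcript length and library size, as deposited by the authors, so that levels can be set side by side between genes per length. Differences are JAK inhibitor minus vehicle in log2(FPKM + 1), and because of the added 1 this scale makes the change of a low gene look smaller than it is. They were tested with limma over the 11301 genes that reached 1 FPKM in 1 or more of the mice, and p was adjusted over all of them. P-values measure the spread between these 3 mice per group. An exact 2-sided permutation test over 3 against 3 mice cannot give a p below 0.1.

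The label was compared with marker genes. Of the 9 monocyte markers, all were detected, led by Ly6c2 with 4348 ± 236 FPKM in JAK inhibitor-treated and 3944 ± 1036 FPKM in vehicle-treated mice (SD, n = 3). Csf1r, the receptor that osteoclast precursors depend on, lay between 354.9 and 421.9 FPKM in every mouse. Calcr, a gene of the mature osteoclast, was listed at 0 in all 6 mice, although the osteoclast genes Acp5 and Ctsk had 90.7 to 383.4 and 7.55 to 167.5 FPKM. Pax5 and Ms4a1 of B cells were also at 0, whereas Cd79b of the same list had 26.7 to 35.4 FPKM. Sp7 of bone-forming cells was at 0 in every mouse. Granule genes of early neutrophil development were also abundant, with Mpo between 1650 and 6106 FPKM.

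Vehicle-treated mouse 3 stood apart. Its log2(FPKM + 1) values correlated with those of the other mice at a Pearson r of 0.958 to 0.9749 across genes, against 0.976 to 0.985 among the other 5. Its Cx3cr1 level was 15.5 FPKM, where the other mice had 29.5 to 36.1 FPKM. Results are therefore given with and without this mouse.

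Among the 7 members, Adam8 showed the largest difference between the groups, with a mean level in JAK inhibitor-treated mice of 0.242 times that in vehicle-treated controls. Its FPKM were 4.70, 3.48 and 6.35 in JAK inhibitor-treated mice 1, 2 and 3, and 16.0, 10.3 and 33.7 in vehicle-treated mice 1, 2 and 3. The groups did not overlap, and vehicle-treated mouse 3 was the highest of all. The mean was 4.84 ± 1.44 FPKM with the inhibitor and 20.02 ± 12.2 FPKM with vehicle (SD, n = 3), a 4.13-fold higher level in vehicle-treated mice. On the log2(FPKM + 1) scale the difference was -1.72 (SE 0.365, 95% interval -2.55 to -0.89), with an unadjusted limma p of 0.00113 and an adjusted p of 0.109. The exact permutation p was 0.1, the smallest this design allows. Without vehicle-treated mouse 3 the vehicle level was 2.72-fold that of the inhibitor, and the difference was -1.28 (SE 0.262) with a limma adjusted p of 0.133. The call at an adjusted p under 0.05 was thus not reached with or without that mouse. Leaving out vehicle-treated mouse 2 gave -2.09 with a limma adjusted p of 0.0587, or 0.0354 when the filter on low values was applied again, among adjusted p of 0.0233 to 0.344 over the alternatives. In bulk samples such as these, fewer cells of a type and less RNA per cell cannot be told apart.

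Adam8 lies on the minus strand of chromosome 7 (chr7:139978932-139992562, GRCm38, GENCODE M21), and Adam10 on the plus strand of chromosome 9 (chr9:70678997-70780229). Their upstream sequences are shown because these members had groups without overlap in opposite directions. RefSeq promoter sequences (GRCm38.p6) were matched for 5 of the 7 members: Adam8, Adam10, Adam15, Adam17 and Adam19. The 250 bases before the start are given 5′ to 3′ for Adam8 (chr7:139992563-139992812, minus strand) and Adam10 (chr9:70678732-70678981, plus strand). Capitals mark CCAAT and GGGCGG on either strand, and where capitals run on, copies of GGGCGG share bases.
Adam8: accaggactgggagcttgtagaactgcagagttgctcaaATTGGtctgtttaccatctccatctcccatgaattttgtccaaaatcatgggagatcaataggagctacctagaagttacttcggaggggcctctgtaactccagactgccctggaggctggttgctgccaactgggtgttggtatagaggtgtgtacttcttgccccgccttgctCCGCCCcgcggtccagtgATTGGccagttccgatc
Adam10: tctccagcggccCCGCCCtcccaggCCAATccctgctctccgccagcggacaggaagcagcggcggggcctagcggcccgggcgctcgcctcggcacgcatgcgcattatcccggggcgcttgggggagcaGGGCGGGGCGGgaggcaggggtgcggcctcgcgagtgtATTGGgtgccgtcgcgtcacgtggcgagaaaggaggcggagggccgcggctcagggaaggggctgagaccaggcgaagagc
The Adam8 window held 2 copies of CCAAT and 1 of GGGCGG, and the Adam10 window held 2 and 3. Of the 32851 windows of the same length in the table, 33.8% held CCAAT and 32.7% held GGGCGG. Neither TTCNNNGAA, the pattern that STAT dimers are known to bind, nor TATAAA was in any of the 7 windows of these 5 members. TTCNNNGAA was in 7.02% of all windows and TATAAA in 12.4%. GC content was 52.8% for Adam8 and 74.0% for Adam10, against a median of 52.4% over all windows. A match is a description of the letters, and binding was not measured.

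Adam9, a widely expressed sheddase, was the only other member with a lower level in every JAK inhibitor-treated mouse than in any vehicle-treated mouse. FPKM were 17.9, 16.5 and 21.9 in JAK inhibitor-treated mice and 24.3, 23.1 and 37.3 in vehicle-treated mice. Vehicle-treated mouse 3 was again the highest, and the gap between the nearest mice of the 2 groups was small. The difference was -0.54 on the log2(FPKM + 1) scale (SE 0.189, 95% interval -0.97 to -0.11), with a limma p of 0.0192 and an adjusted p of 0.216. The difference without vehicle-treated mouse 3 was -0.33, with a limma p of 0.04997 and an adjusted p of 0.385. The exact permutation p over all mice was 0.1.

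Adam10, the constitutive sheddase of Notch receptors and of many adhesion molecules, was higher with the inhibitor in every mouse. Its FPKM were 40.3, 44.2 and 38.9 in JAK inhibitor-treated mice and 33.6, 37.996 and 36.8 in vehicle-treated mice. The groups did not overlap, although JAK inhibitor-treated mouse 3 was close to vehicle-treated mouse 2. The difference was 0.18 (SE 0.101, 95% interval -0.05 to 0.41) with a limma adjusted p of 0.423, and 0.19 without vehicle-treated mouse 3.

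Adam17, the TNF sheddase, had nearly equal levels in the groups. FPKM were 28.5, 29.3 and 33.1 in JAK inhibitor-treated mice and 28.7, 34.8 and 34.6 in vehicle-treated mice. The groups overlapped. The difference was -0.10 (SE 0.117, 95% interval -0.37 to 0.16) with a limma adjusted p of 0.712, and leaving out each mouse gave -0.19 to -0.06. Exons of Adam17 overlap those of Iah1 on the opposite strand, which had 41.0 to 53.5 FPKM in JAK inhibitor-treated and 39.1 to 45.3 FPKM in vehicle-treated mice. Exons of Adam8 (with Gm16201), Adam15 (with 4731419I09Rik) and Adam19 (with Gm16033 and Gm16034) also overlap genes on the opposite strand, whose values were not used here. The study's methods name a stranded library kit and the sample labels a kit that does not mark strand, and whether reads were assigned by strand was not given in the sources used here. Reads of these overlapping genes may therefore not be told apart.

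Rhbdf2, whose product carries ADAM17 to the cell surface, had FPKM of 7.84, 12.6 and 7.96 in JAK inhibitor-treated mice and 10.3, 12.5 and 14.4 in vehicle-treated mice. JAK inhibitor-treated mouse 2 lay within the vehicle range, whereas mice 1 and 3 lay below it. The difference was -0.38 (SE 0.199, 95% interval -0.83 to 0.08) with a limma adjusted p of 0.400, and -0.27 without vehicle-treated mouse 3. It was -0.58 with an unadjusted limma p of 0.0139 without JAK inhibitor-treated mouse 2, the mouse within the vehicle range. The ADAM17 and iRhom2 genes thus showed no difference past an adjusted p under 0.05.

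Adam15, which carries an integrin-binding motif in its disintegrin domain, had FPKM of 25.8, 39.5 and 31.0 with the inhibitor and 33.2, 38.1 and 42.8 with vehicle. The groups overlapped, and the difference was -0.25 (SE 0.162) with a limma adjusted p of 0.494. This value moved with single mice, being -0.41 (unadjusted limma p of 0.0307) without JAK inhibitor-treated mouse 2, -0.17 without vehicle-treated mouse 3 and -0.11 without JAK inhibitor-treated mouse 1. Adam19 was near the limit of what was tested, with FPKM of 1.03, 0.547 and 0.566 with the inhibitor and 0.747, 0.768 and 0.301 with vehicle. It passed the filter on low values through JAK inhibitor-treated mouse 1 alone. Its difference of 0.10 (adjusted limma p of 0.884) was -0.047 without vehicle-treated mouse 3 and -0.031 without JAK inhibitor-treated mouse 1, so no direction is given for it.

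**Figure D1:**
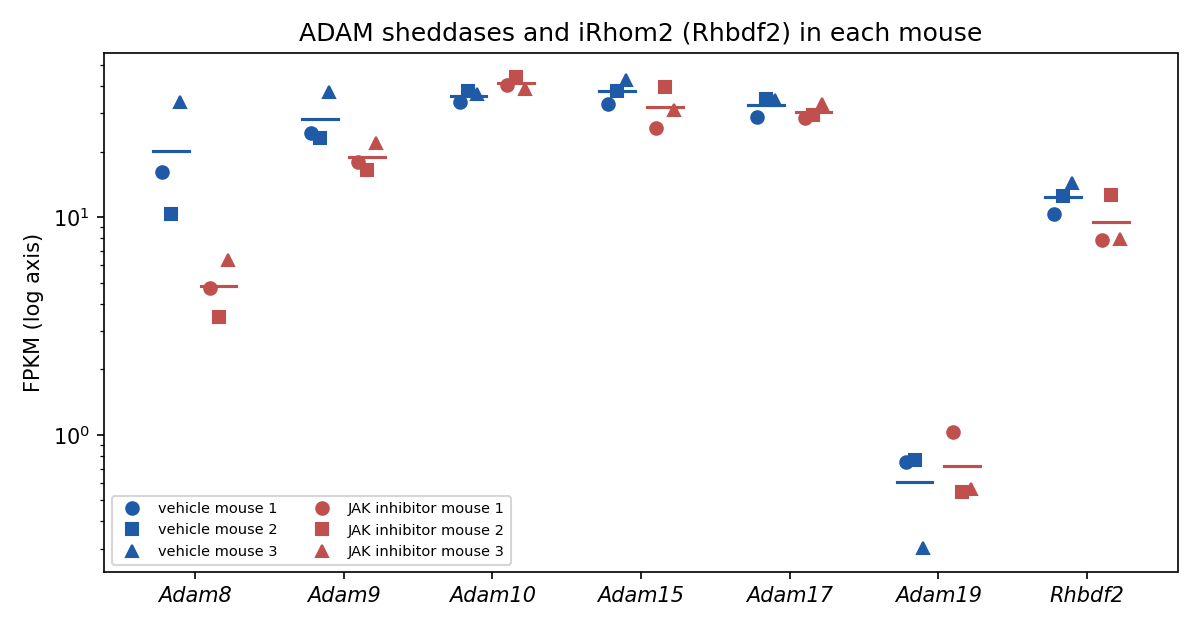
FPKM of the 7 genes on a log axis, with a point for each mouse and a bar at each group's mean. Adam8 in JAK inhibitor-treated mice lies between 3.48 and 6.35 FPKM, below all vehicle-treated mice, whereas Adam15, Adam17, Adam19 and Rhbdf2 overlap between the groups.

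All 7 members passed the filter on low values. None of the 7 passed an adjusted p under 0.05 in limma, against 15 of 11301 genes tested (0.133%). At an unadjusted p under 0.05, 2 of 7 were lower (Adam8 and Adam9) and 0 were higher in limma, against 9.4% and 6.57% of all genes tested. The members were chosen with earlier results of these data known, so these counts are a description and no test. Which members passed depended on the mice: leaving out JAK inhibitor-treated mouse 1, only Adam8 did (Adam9 limma p of 0.0638), and leaving out JAK inhibitor-treated mouse 2, Adam8, Adam15 and Rhbdf2 did and Adam9 did not (limma p of 0.0867). Groups did not overlap for 2 lower members and 1 higher member, where 12.1% and 9.92% of all genes did so. Without vehicle-treated mouse 3, 0 of 7 passed an adjusted p under 0.05 in limma (0.221% of all genes), and at an unadjusted p under 0.05 there were 2 lower (7.82%) and 0 higher (5.15%). These values keep the 11301 genes tested; with the filter on low values applied again to the 5 mice left, 94 of 11130 genes and 0 of 7 members passed in limma, and the adjusted p of Adam8 was 0.0537. The median difference of the 6 ADAM genes was -0.18, beside -0.004 for all genes tested, and -0.11 beside -0.005 without vehicle-treated mouse 3.

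**Figure D2:**
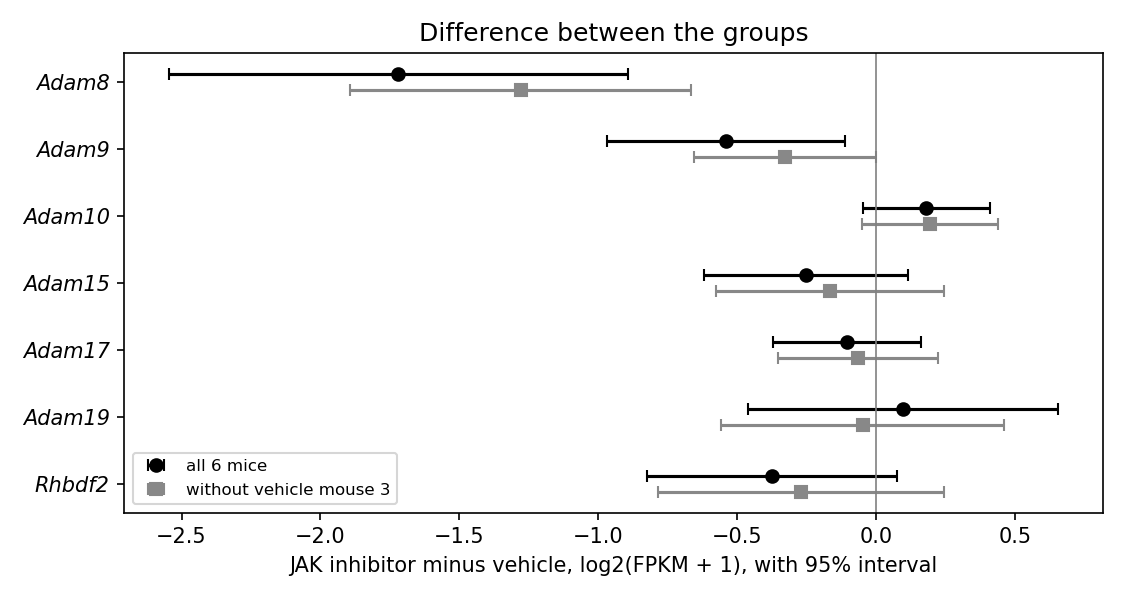
Difference between the groups on the log2(FPKM + 1) scale for each gene, with 95% intervals from limma, over all 6 mice and without vehicle-treated mouse 3. Adam8 is at -1.72 over all mice and at -1.28 without that mouse, and the intervals of the 5 genes other than Adam8 and Adam9 include 0.

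The order of the levels differed between the groups in the places of Adam8 and Rhbdf2 and of Adam10 and Adam15. In vehicle-treated mice the order of mean FPKM was Adam15, Adam10, Adam17, Adam9, Adam8, Rhbdf2 and Adam19. The FPKM ranges of neighbours in that order overlapped, except those of Rhbdf2 and Adam19. Within each vehicle-treated mouse, Adam10 was nevertheless above Adam17 and Adam9 above Adam8. In JAK inhibitor-treated mice it was Adam10, Adam15, Adam17, Adam9, Rhbdf2, Adam8 and Adam19, and from Adam17 downward the ranges of neighbours did not overlap. There, Adam10 and Adam15, and Adam15 and Adam17, were not separated beyond their spread, whereas the ranges of Adam10 and Adam17 did not overlap. Within each JAK inhibitor-treated mouse Adam10 was nevertheless above Adam15, whereas the order of Adam15 and Adam17 changed between mice. The places of Adam10 and Adam15 with vehicle rested on vehicle-treated mouse 3, without which their means were 35.8 and 35.6 FPKM, the order seen with the inhibitor. The ratio of Adam8 to Rhbdf2 FPKM was 0.599, 0.276 and 0.798 with the inhibitor and 1.56, 0.826 and 2.34 with vehicle.

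Of the summed FPKM of the 6 ADAM genes, Adam8 made up 3.98%, 2.605% and 4.82% in JAK inhibitor-treated mice. In vehicle-treated mice its share was 11.7%, 7.13% and 18.2%. The groups did not overlap, and the means were 3.80% and 12.3%, or 9.43% for vehicle without mouse 3. The sum of the other 5 ADAM genes was 123 ± 8.54 FPKM with the inhibitor and 136 ± 15.6 FPKM with vehicle (SD, n = 3). Without vehicle-treated mouse 3 the mean sum with vehicle was 128 FPKM.

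Adam8 was then set against each other member within each mouse, to describe how far its difference went beyond theirs. Adam8 minus Adam9 on the log2(FPKM + 1) scale was -1.73, -1.97 and -1.64 in JAK inhibitor-treated mice and -0.57, -1.09 and -0.14 in vehicle-treated mice. Adam8 minus Adam17 was -2.37, -2.76 and -2.22 with the inhibitor and -0.80, -1.66 and -0.04 with vehicle. For all 6 pairs the groups did not overlap, so that Adam8 was lower relative to each other member in every JAK inhibitor-treated mouse. The group differences of these values were -1.18 for Adam9, -1.34 for Rhbdf2, -1.47 for Adam15, -1.61 for Adam17, -1.82 for Adam19 and -1.90 for Adam10. Each had an exact 2-sided permutation p of 0.1 over 3 against 3 mice, and 0.1 after adjustment over the 6 pairs, the smallest value possible. Leaving out vehicle-treated mouse 3, they ranged from -0.95 for Adam9 to -1.47 for Adam10, again with no overlap and with an exact permutation p of 0.2 each. Adam8 minus the mean of the 6 other members was -1.39, -1.88 and -1.08 with the inhibitor and 0.08, -0.65 and 0.88 with vehicle. All 6 pairs share the Adam8 values. The negative sign of their group differences follows from Adam8 having the most negative difference, so the pairs are no separate results.

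**Figure D3:**
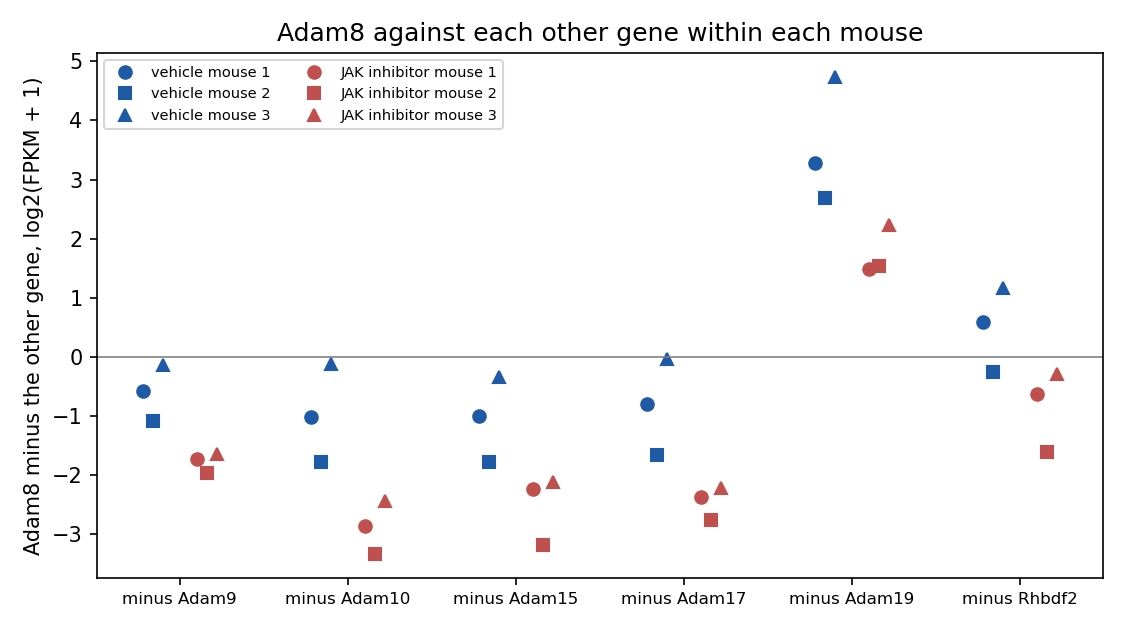
Adam8 minus each other gene within each mouse on the log2(FPKM + 1) scale. For each gene the 3 JAK inhibitor-treated mice lie below the 3 vehicle-treated mice, with group differences from -1.18 for Adam9 to -1.90 for Adam10.

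The other genes of the shedding pathway were taken from lists of 93 genes, of which 51 passed the filter. The lists were chosen with earlier results of these data known, so their shares are a description and no test. None passed an adjusted p under 0.05 in limma (0.133% of all genes tested). At an unadjusted p under 0.05, 11 of the 51 were lower (21.6%) and 4 were higher (7.84%), beside 9.4% and 6.57% of all genes tested, and the share of higher genes was thus near that of all genes. These shares over all genes also apply to the counts of the single lists and of the markers below. The median difference of the 51 genes was -0.04, beside -0.004 for all genes tested, and 0.006 without vehicle-treated mouse 3. Without vehicle-treated mouse 3, 3 of the 51 passed an adjusted p under 0.05 (0.221% of all genes tested), namely Mmp14, Il1r2 and F11r, all lower with the inhibitor. Applying the filter again to the 5 mice left added Cxcl16, which gave 4 of 49 pathway genes, beside 94 of 11130 for all genes tested.

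For the transport and maturation of ADAM17, 4 of 7 genes were tested, and 1 was lower at an unadjusted p under 0.05. That gene was Furin, a convertase that removes ADAM prodomains, with FPKM of 6.15, 4.44 and 6.25 with the inhibitor and 9.19, 9.75 and 12.4 with vehicle. The groups did not overlap, and the difference was -0.79 (SE 0.174, limma adjusted p of 0.109), or -0.68 without vehicle-treated mouse 3. Frmd8, which stabilises iRhoms, and the convertase Pcsk7 differed by 0.16 and -0.18, with limma adjusted p of 0.464 and 0.579.

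Among the TspanC8 tetraspanins, 4 of 6 were tested, and Tspan17 was higher at an unadjusted p under 0.05. It had FPKM of 6.995, 7.01 and 7.002 with the inhibitor and 6.56, 4.43 and 4.49 with vehicle, a difference of 0.40 (limma adjusted p of 0.301). With vehicle-treated mouse 3 left out it was 0.32 with an unadjusted limma p of 0.123, no longer under 0.05. Tspan14 was the most abundant of the group at 78.4 to 97.9 FPKM, and Tspan5 followed at 16.6 to 20.98 FPKM, each with overlapping groups.

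Of 5 sheddase inhibitors, 3 were tested. Timp2 had FPKM of 10.3, 9.60 and 9.29 with the inhibitor and 13.4, 14.5 and 13.1 with vehicle. The groups did not overlap, and the difference was -0.45 (SE 0.12, limma adjusted p of 0.142), or -0.48 without vehicle-treated mouse 3. Timp1 was at or below 0.564 FPKM in 5 mice and at 3.61 FPKM in vehicle-treated mouse 3, and its difference of -0.55 was 0.14 without that mouse. Apart from Timp2, the genes tested reached 1 FPKM only in vehicle-treated mice and so passed the filter through that group alone. The list median of -0.45 was 0.14 without vehicle-treated mouse 3.

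The longest list held 36 membrane proteins that ADAMs shed on myeloid cells, of which 27 were tested, with 6 lower and 2 higher at an unadjusted p under 0.05. Il1r2, the decoy receptor for interleukin-1, had FPKM of 8.56, 4.96 and 8.31 with the inhibitor and 58.4, 31.5 and 846.4 with vehicle. Its groups did not overlap, and vehicle-treated mouse 3 was far above all others. The difference was -3.86 (SE 0.984, limma adjusted p of 0.13), and -2.44 (SE 0.299, limma adjusted p of 0.0424) without that mouse. Cxcl16, a membrane chemokine that ADAM10 releases, had FPKM of 3.31, 1.45 and 2.25 with the inhibitor and 9.68, 10.1 and 34.4 with vehicle. Its difference was -2.31 (limma adjusted p of 0.0886), or -1.75 without vehicle-treated mouse 3. F11r, the junctional adhesion molecule A, had 12.4, 10.5 and 10.5 FPKM with the inhibitor and 23.1, 24.1 and 56.9 FPKM with vehicle. Its difference was -1.43 (limma adjusted p of 0.109) and -1.02 (limma adjusted p of 0.0424) without that mouse.

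Other substrates also differed, none at an adjusted p under 0.05. The efferocytosis receptor Mertk differed by -1.57, the adhesion molecule Icam1 by -0.96 and the amyloid precursor App by -0.47, each without overlap between the groups. Their limma adjusted p were 0.158, 0.133 and 0.104. Mertk was low with the inhibitor, at 1.34, 0.456 and 0.444 FPKM, and had 2.735, 2.09 and 10.2 FPKM with vehicle. Without vehicle-treated mouse 3 the differences of Mertk, Icam1 and App were -0.999, -0.65 and -0.40. Spn, the sialomucin CD43, was higher by 0.54 and Alcam, an adhesion molecule shed by ADAM17, by 0.71, and without that mouse by 0.36 and 0.66. The limma adjusted p of Spn and Alcam over all mice were 0.158 and 0.147. Csf1r and Itgb2, the most abundant substrates, differed by -0.03 and 0.06, with overlapping groups, and by 0.006 and -0.017 without that mouse.

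Of 16 other ADAM family genes, 1 was tested. Adamdec1, a soluble ADAM-like protease, had 6.10, 6.03 and 7.34 FPKM with the inhibitor and 5.41, 3.89 and 3.18 FPKM with vehicle. Its groups did not overlap, and the difference was 0.56 (limma adjusted p of 0.212). It was 0.42 without vehicle-treated mouse 3, with an unadjusted limma p of 0.0609, no longer under 0.05. Adam4 was below 1 FPKM in all 6 mice, with 0.746 FPKM at most.

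Sheddases outside the ADAM family were represented by 13 genes, of which 2 were tested. Mmp14, a membrane-type metalloproteinase, had FPKM of 7.34, 6.997 and 10.3 with the inhibitor and 36.1, 27.5 and 101.1 with vehicle. The groups did not overlap. The difference was -2.39 (SE 0.403, limma adjusted p of 0.0726), and -1.84 (SE 0.195, limma adjusted p of 0.0404) without vehicle-treated mouse 3. Bace1, the beta-secretase, differed by 0.09 with overlapping groups, and by 0.002 without that mouse.

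All 10 listed genes of proteases that cut within the membrane, their subunits included, were tested, and 2 were lower at an unadjusted p under 0.05. Psen2, a catalytic subunit of gamma-secretase, had FPKM of 14.3, 16.3 and 18.3 with the inhibitor and 26.8, 22.8 and 37.3 with vehicle. Its groups did not overlap, and the difference was -0.77 (limma adjusted p of 0.117), or -0.58 without vehicle-treated mouse 3. Sppl3 differed by -0.51 with overlapping groups, and by -0.66 without that mouse, which was the one that overlapped. Psenen, the most abundant gene of the list, differed by 0.09 with overlapping groups.

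**Figure D4:**
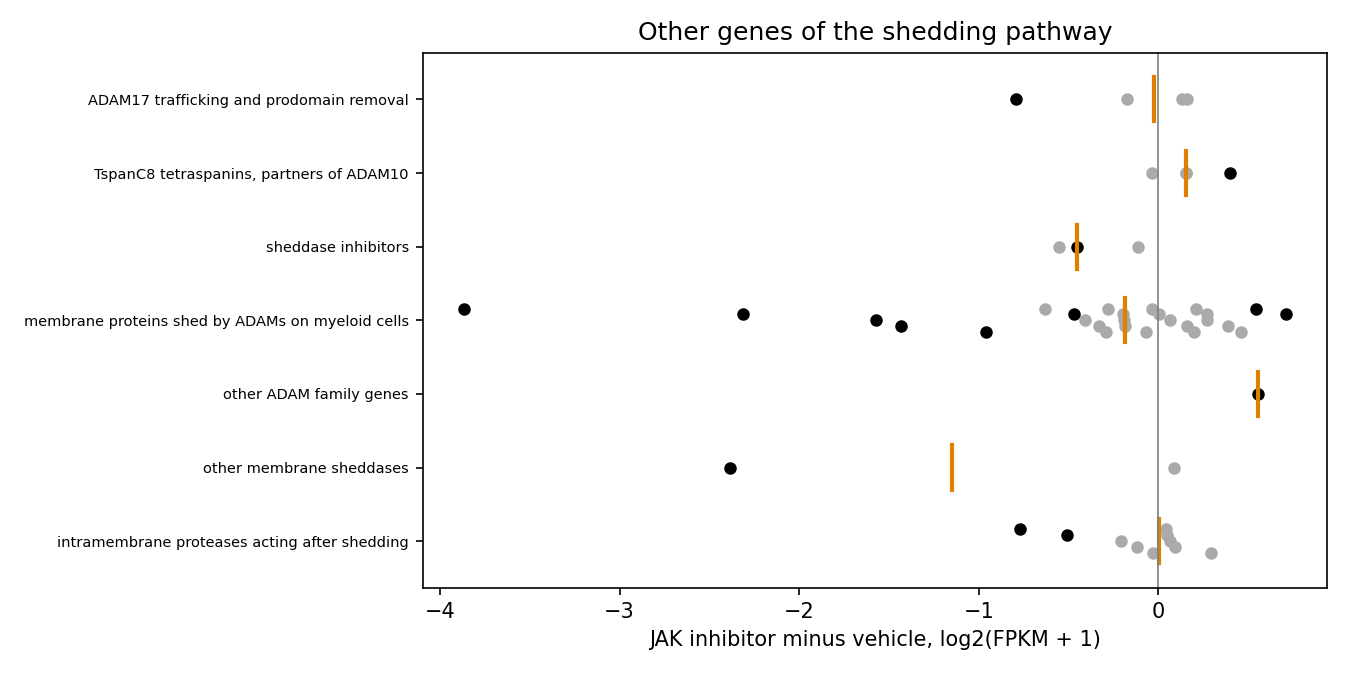
Differences between the groups on the log2(FPKM + 1) scale for the 51 tested genes of the shedding pathway other than the members, by list. Black points are genes with an unadjusted limma p under 0.05, 11 lower and 4 higher, grey points the rest, and orange bars the median of each list.

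The genes whose pattern over the 6 mice was most like that of Adam8 were sought among the 7740 other tested genes with a mean of at least 5 FPKM. By Pearson r of log2(FPKM + 1) they were Hp (0.998), Ppp1r14b (0.997), C1rl (0.996), Fpr1 (0.996) and Crispld2 (0.995). These values are a description over 6 mice in 2 groups, and 191 genes had an r of at least 0.95. Without vehicle-treated mouse 3, r was 0.991 to 0.998 for these 5 genes. Fpr1, a receptor for formyl peptides, had FPKM of 163.4, 144.01 and 194.2 with the inhibitor and 335.01, 232.6 and 521.4 with vehicle. Crispld2 had FPKM of 2.38, 1.44 and 4.23 with the inhibitor and 16.4, 9.80 and 37.4 with vehicle. In both genes, as in Adam8, vehicle-treated mouse 3 was the highest and JAK inhibitor-treated mouse 2 the lowest. Among the members, r with Adam8 was 0.969 for Adam9, 0.522 for Rhbdf2, 0.498 for Adam17, 0.494 for Adam15 and -0.779 for Adam10. Leaving out vehicle-treated mouse 3, it was 0.934 for Adam9, 0.133 for Rhbdf2, 0.199 for Adam17, 0.105 for Adam15 and -0.961 for Adam10, so the values of Rhbdf2, Adam17 and Adam15 rested on that mouse.

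**Figure D5:**
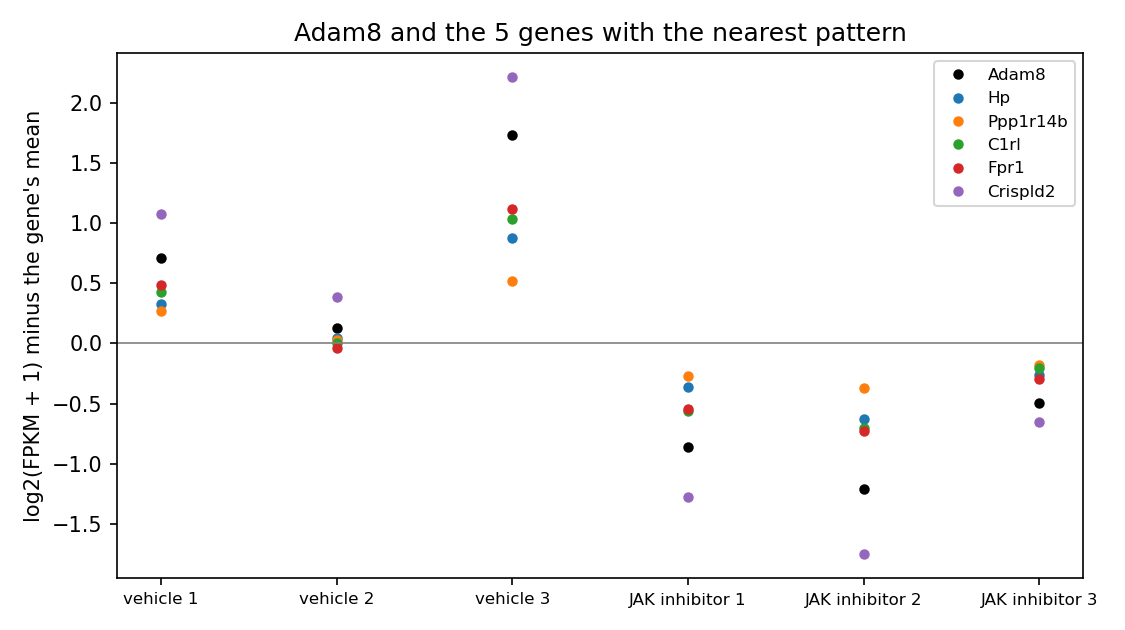
Adam8 and the 5 genes with the nearest pattern in each mouse, as log2(FPKM + 1) minus the gene's mean over the 6 mice. The r with Adam8 lies between 0.995 and 0.998, and vehicle-treated mouse 3 is highest for all 6 genes.

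Markers of cell types that the sort could hold were set beside the Adam8 values. The 8 osteoclast markers summed to 119.5, 116.7 and 124.1 FPKM with the inhibitor and 286.5, 175.1 and 644.01 FPKM with vehicle, in the same order of mice within each group as Adam8. Acp5 was the most abundant of them, with 102.6, 92.5 and 90.7 FPKM in JAK inhibitor-treated mice, which is not the order of Adam8. In limma, 6 of the 7 tested were lower at an unadjusted p under 0.05 (5 without vehicle-treated mouse 3), and Calcr was at 0. Of these 6, Dcstamp and Ocstamp reached 1 FPKM only in vehicle-treated mice and so passed the filter through that group alone. The same held for Oscar, the tested gene outside these 6, so the count depends in part on that filter. The 10 macrophage markers summed to 1004, 892 and 1130 FPKM with the inhibitor and 2085, 1910 and 2586 FPKM with vehicle. These sums, too, followed the order of Adam8 within each group. Apoe made up most of these sums, and without it they were 232, 139 and 160 FPKM with the inhibitor and 427, 431 and 254 FPKM with vehicle, lowest among vehicle-treated mice in mouse 3, where Adam8 was highest. Apoe was the most abundant, 5 of the 9 tested were lower at an unadjusted p under 0.05 (7 without vehicle-treated mouse 3), and Timd4 was at 0 in 5 mice. The part of these cell types in the Adam8 result was not tested.

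The other marker lists were summed in the same way. Neutrophil markers, led by S100a8, summed to 26236, 18940 and 23369 FPKM with the inhibitor and 21355, 18663 and 24193 FPKM with vehicle. With vehicle these sums followed the order of Adam8, and with the inhibitor they did not. Of 12 tested, 2 were lower and 4 higher at an unadjusted p under 0.05. The lower ones were Mmp8 and Cxcr2, with differences of -1.06 and -0.80, and the higher ones were Camp, Mpo, Elane and Prtn3, all without overlap between the groups. Monocyte markers summed to 5408, 5014 and 5382 FPKM with the inhibitor and 5432, 5431 and 3631 FPKM with vehicle, with 2 of 9 lower and 2 higher. T or NK cell markers had mean sums of 517 FPKM with the inhibitor and 289 FPKM with vehicle, of which Nkg7 alone made up 515 and 286 FPKM, and at an unadjusted p under 0.05 it was the 1 higher gene of the 4 tested, with 0 lower. Erythroid markers, led by Hba-a1, summed to 7.54, 6.09 and 51.1 FPKM with the inhibitor and 2.32, 2.77 and 0.690 FPKM with vehicle. Their mean with the inhibitor was 21.6 FPKM, or 6.82 FPKM without JAK inhibitor-treated mouse 3. Of the 4 erythroid genes tested, 2 were higher and 0 lower at an unadjusted limma p under 0.05. Hba-a1, 1 of these 2, reached 1 FPKM only with the inhibitor. Mast cell or basophil markers, led by Mcpt8, had mean sums of 1245 and 908 FPKM. Of the 4 tested, 1 was higher at an unadjusted limma p under 0.05, and 0 without vehicle-treated mouse 3. Dendritic cell markers, led by Flt3, had mean sums of 38.1 and 41.1 FPKM, B cell markers, led by Cd79b, 32.1 and 29.3 FPKM, and stromal markers, led by Pdgfrb, 2.01 and 1.16 FPKM. Of the 5 dendritic cell genes tested, 1 was higher, and without vehicle-treated mouse 3, 1 was lower and 0 higher. The part of these cell types in the values of the ADAM genes was not tested.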

How the data were processed

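For every mouse the authors deposited 1 table of FPKM by gene symbol. The submitters' processing notes name TopHat2 2.0.13, Bowtie2 2.2.3, SAMtools 0.1.19, Cufflinks 2.2.1 and the build mm10. How the authors scaled FPKM between libraries was not given in the sources used here. The study's methods and the sample labels name different library kits, of which only that of the methods marks strand. Read counts were not used here, so the depth of each library is unknown and no counting interval can be given.

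Genes that reached 1 FPKM in 1 or more of the mice were compared as log2(FPKM + 1) with limma 3.58.1 in R 4.3.3, using trended empirical Bayes and Benjamini-Hochberg adjustment over all genes. The model was tested on simulated data. Exact 2-sided permutation tests, tables and figures used Python 3.11.15, SciPy 1.17.1, NumPy 2.4.6, pandas 2.3.3 and matplotlib 3.10.9. Positions are from GENCODE M21 and promoter sequences from RefSeq.

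The members and lists were chosen with earlier results of these data known. Named genes are all members; in each pathway list the 2 genes with the highest mean FPKM and every gene with an unadjusted p under 0.05; the 5 genes most like Adam8; and of each marker list the most abundant gene and defining markers at 0. One gene that this rule names is not reported here. Other marker genes (Csf1r, Cx3cr1, Ctsk, Dcstamp, Ocstamp, Oscar, Mpo, Mmp8, Cxcr2, Camp, Elane, Prtn3, Timd4) were named after their values were seen. Alternatives were a pseudocount of 0.1, 2 other filters, quantile and median-ratio scaling, no trend, library weights, a replicate block, and leaving out every mouse in turn. Leaving out a mouse kept the genes tested; applying the filter again to the 5 mice left was added after seeing the data.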

Additional observations from a re-analysis of the deposited data

How the results depend on the processing

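Over 20 alternatives the Adam8 difference stayed negative, and its limma adjusted p ranged from 0.0233 to 0.344. It passed 0.05 in 2 of them: with the replicate block (-1.72, adjusted p of 0.0233) and, in a setting added after seeing the data, without vehicle-treated mouse 2 with low values filtered again (-2.09, adjusted p of 0.0354). With the genes tested kept, that mouse left out gave an adjusted p of 0.0587, so this call depended on the filter. Leaving out each mouse gave differences of -2.09 to -1.28, whichever filter was used. Adam9, Adam10, Adam15, Adam17 and Rhbdf2 kept their direction and side of the threshold in all 20. Adam19 reversed with library weights (-0.000984), and left-out mice gave -0.047 to 0.17; it was not tested with at least 1 FPKM in 3 mice, nor without JAK inhibitor-treated mouse 1 and filtered again. The 54 values of Adam8 against another member, those with the low gene Adam19 included, ranged from -2.30 to -0.95. Their negative sign follows from Adam8 having the most negative difference of the members, and is no separate result.

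The count of genes called, 15 of 11301, was 2 with no filter, 34 with at least 1 FPKM in 3 mice, 2 with no trend, 63 with library weights and 67 with the replicate block. It ranged from 1 to 95 when mice were left out: 1 to 25 with the genes tested kept, and 3 to 95 with low values filtered again (95 and 94 without vehicle-treated mouse 2 or 3, and 6 with JAK inhibitor-treated mouse 2 left out). Same-numbered mice correlated at 0.02, 0.05 and -0.0002 in their deviations from the group means. These correlations gave no sign that the numbers pair the mice, and they cannot show that the mice were unpaired. Pathway genes higher at an unadjusted p under 0.05 numbered 2 to 5 when mice were left out. The causes were not tested. The depth behind each value is unknown.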
